A study of Mus musculus with 4 samples.

Results

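Pluripotency and early embryo genes are expressed by ESCs and by the cells of the early embryo, and 32 of them were followed here in 4 sorted populations of mouse midbrain cells. The genes were chosen by name, with earlier results of these data known. Each was read from the array's transcript clusters that carry its symbol alone, with the brightest cluster standing for the gene. All 32 were measured, among 19938 genes with such a cluster. The first pair of populations came from LMX1A::GFP knock-in (KI) ESCs, a line of 129SVEV background with GFP at the Lmx1a locus. These cells were kept on mouse embryonic fibroblasts with LIF, differentiated as floating aggregates (the SFEBq method) with FGF8b and SHH, and sorted on day 9 into CORIN+LMX1A::GFP+ cells and, as their counterpart, CORIN-LMX1A::GFP+ cells. Both populations of that pair were therefore selected as GFP+. The other pair, VM CORIN+ and VM CORIN-, was sorted by CORIN alone from the ventral mesencephalon (VM) of C57BL/6N fetuses at E11.5. Strain, source and the GFP gate differ between the pairs and cannot be told apart. How many fetuses or cultures went into a population is not given in the sources used here.

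CORIN is a serine protease on floor plate cells, and Corin had a log2 signal of 13.10 for CORIN+LMX1A::GFP+, 11.13 for CORIN-LMX1A::GFP+, 11.43 for VM CORIN+ and 7.28 for VM CORIN-. The label of each sort thus matched the order of Corin within its pair. Each population has 1 array, so no value below has a replicate error, no difference was tested, and the number of arrays limits the precision. Values are log2 signals as the authors deposited them, and 1 log2 unit is a 2-fold difference. As a measure of the spread between 2 arrays, the scaled median absolute deviation of the difference over all 19938 genes was 0.16 for the ESC-derived and 0.18 for the fetal arrays. No detection calls were used, so a low signal cannot be told apart from an unexpressed gene.

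Pluripotent cells hold their state through transcription factors that bind one another's genes. OCT4 (the product of Pou5f1), SOX2 and NANOG form the centre of this network, and KLF, ESRRB, TFCP2L1, TBX3 and NR0B1 proteins belong to its naive, pre-implantation form. In neural differentiation the network is shut down, although some of its members, such as Sall4 and the Lin28 genes, are also known from early neural tissue. The fetal VM has long left pluripotency, and the higher of its 2 arrays was taken here as the background level of each gene.

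The pluripotency genes were lower in CORIN+LMX1A::GFP+ cells than in CORIN-LMX1A::GFP+ cells, and in the former most lay near the level of the fetal VM, as most genes of the array did. In the ESC-derived pair, 10 of the 32 genes (31.25%) were lower by at least 2-fold in CORIN+LMX1A::GFP+ cells, against 0.522% of all 19938 genes. They were Pou5f1, Nanog, Esrrb, Nr0b1, Dppa2, Dppa5a, Utf1, Tdgf1, Lin28a and Dnmt3l. None of the 32 was at least 2-fold higher there, against 0.376% of all genes. The median difference, CORIN+LMX1A::GFP+ minus CORIN-LMX1A::GFP+, was -0.53 on the log2 scale over the 32 genes and 0.0021 over all genes. A lower signal was found for 30 of the 32 genes (93.8%), against 49.4% of all genes, and Klf5 and Lefty2 were the exceptions. In sorted bulk cells, fewer pluripotent cells and less of these RNAs per cell cannot be told apart. Both populations were gated as LMX1A::GFP+, and the purity of the sorts was not measured here. The gene just inside the 2-fold line was Lin28a, with a log2 difference of -1.08, and the gene just outside it was Tfcp2l1, with -0.92.

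**Figure D1:**
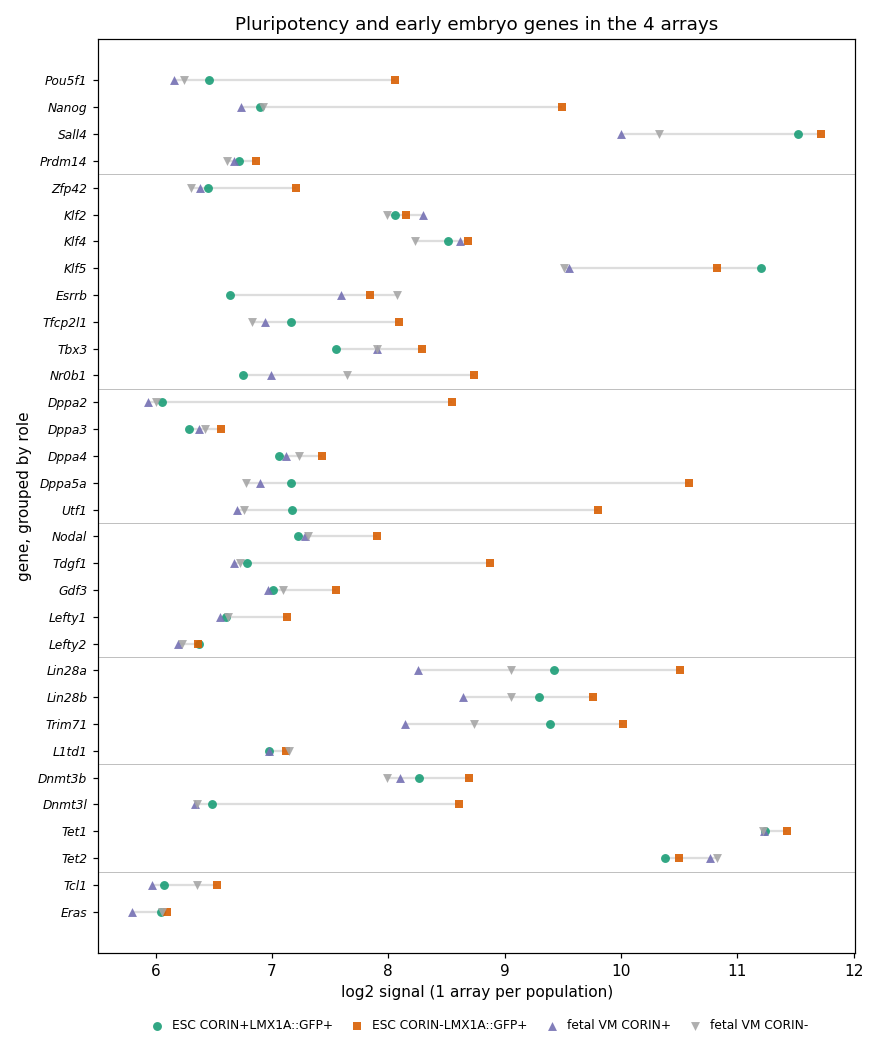
Log2 signal (x axis) of the 32 pluripotency and early embryo genes (y axis, grouped by role) in the 4 arrays, with 1 point per array and a grey line over the range. In genes such as Dppa5a, Nanog and Utf1 the CORIN-LMX1A::GFP+ array stands apart from the other 3, which lie close together, whereas in Sall4 and Klf5 both ESC-derived arrays lie above both fetal arrays.

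Compared with the fetal background, CORIN-LMX1A::GFP+ cells had 13 of the 32 genes at least 2-fold above the higher fetal array, against 2.0% of all genes. These were 9 of the 10 genes above, without Esrrb, together with Sall4, Klf5, Tfcp2l1 and Trim71. In CORIN+LMX1A::GFP+ cells only Sall4 and Klf5 were past this line, 2 of the 32, against 2.57% of all genes. The median excess over the higher fetal array was 0.60 on the log2 scale for CORIN-LMX1A::GFP+ and 0.03 for CORIN+LMX1A::GFP+, and over all genes it was -0.06 in both. The CORIN+LMX1A::GFP+ array lay within 1.5-fold of the higher fetal array for 27 of the 32 genes (84.4%), near the 81.9% of all genes. The CORIN-LMX1A::GFP+ array did so for 15 of the 32 genes (46.9%), against 84.3% of all genes. None of the 32 genes had both fetal arrays at least 2-fold above both ESC-derived arrays, against 1.37% of all genes.

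**Figure D2:**
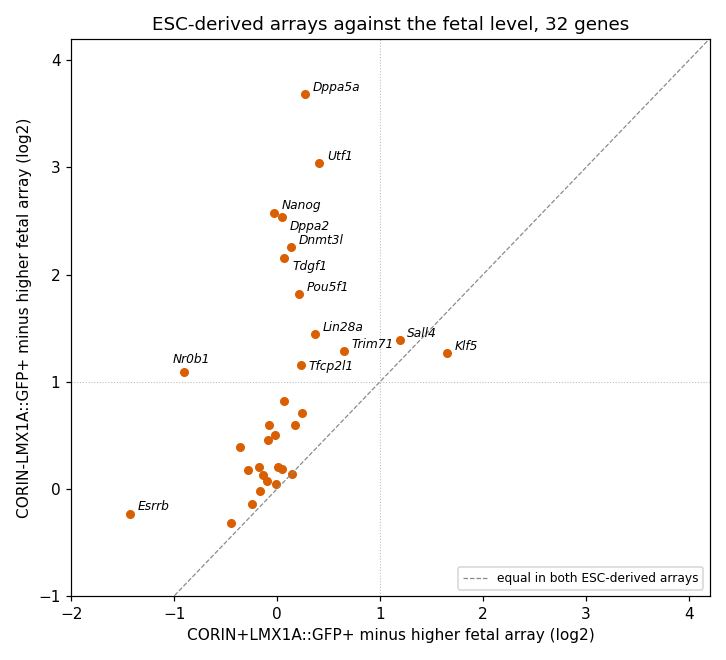
Each of the 32 genes is placed by its log2 signal minus that of the higher fetal array for CORIN+LMX1A::GFP+ (x axis) and for CORIN-LMX1A::GFP+ (y axis), from 1 array each. Dotted lines mark 2-fold and the dashed line marks equal levels in both ESC-derived arrays. Most genes with an excess in CORIN-LMX1A::GFP+ cells sit near 0 on the x axis, Sall4 and Klf5 are past 2-fold on both axes, and Esrrb lies below 0 on both.

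The promoters of 5 of these genes, all lower in CORIN+LMX1A::GFP+ cells, are shown as examples. Binding sites of the network's own factors are known from such promoters. Nanog, Tdgf1, Tfcp2l1 and Zfp42 hold a motif match and Utf1 holds none, so the examples do not represent the whole list. Tfcp2l1 and Zfp42 were short of 2-fold. Pou5f1, Dnmt3l, Nr0b1, Lin28a and Esrrb were past 2-fold, held no match and are not shown. Each is the 250 bases before a transcription start, 5′ to 3′ along the gene, taken from RefSeq on GRCm38.p6. Capitals mark matches, on either strand, to the octamer core TTTGCAT, to the OCT4-SOX2 composite core TGCATNACA, to the ESRRB-type motif CAAGGTCA or to the KLF-type motif GGGCGTGG. The first and second motif can overlap, as they do in Nanog.
Nanog (chr6:122707315-122707564, plus strand): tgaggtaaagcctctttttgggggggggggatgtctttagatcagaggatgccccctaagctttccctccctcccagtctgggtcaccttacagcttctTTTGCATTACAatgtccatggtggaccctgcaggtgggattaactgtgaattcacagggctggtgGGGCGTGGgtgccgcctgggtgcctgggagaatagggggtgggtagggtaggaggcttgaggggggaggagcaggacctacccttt
Tdgf1 (chr9:110946159-110946408, minus strand): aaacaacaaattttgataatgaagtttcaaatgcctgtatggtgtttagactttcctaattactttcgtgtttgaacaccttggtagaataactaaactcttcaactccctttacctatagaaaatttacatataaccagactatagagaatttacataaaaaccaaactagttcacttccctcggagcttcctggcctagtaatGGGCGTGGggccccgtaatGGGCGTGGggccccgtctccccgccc
Tfcp2l1 (chr1:118627695-118627944, plus strand): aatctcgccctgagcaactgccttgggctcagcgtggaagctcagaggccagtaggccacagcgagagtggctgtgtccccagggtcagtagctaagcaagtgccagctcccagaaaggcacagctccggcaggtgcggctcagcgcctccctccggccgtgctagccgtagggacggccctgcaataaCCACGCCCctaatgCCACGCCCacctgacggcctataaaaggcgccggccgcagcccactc
Zfp42 (chr8:43307010-43307259, minus strand): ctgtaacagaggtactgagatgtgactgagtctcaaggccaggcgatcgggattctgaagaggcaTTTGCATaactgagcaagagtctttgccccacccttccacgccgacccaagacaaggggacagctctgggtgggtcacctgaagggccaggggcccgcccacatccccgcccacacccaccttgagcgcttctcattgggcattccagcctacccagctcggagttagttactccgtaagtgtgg
Utf1 (chr7:139943606-139943855, plus strand): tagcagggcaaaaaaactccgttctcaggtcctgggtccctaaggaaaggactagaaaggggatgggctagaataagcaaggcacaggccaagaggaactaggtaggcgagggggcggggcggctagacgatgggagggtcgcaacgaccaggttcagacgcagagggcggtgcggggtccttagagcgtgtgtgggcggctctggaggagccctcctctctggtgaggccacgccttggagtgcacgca
Nanog, shown at the more downstream of its 2 listed starts, held the octamer core at 151 to 145 bases before the start, the composite core at 149 to 141 and the KLF-type motif at 86 to 79. Tdgf1 held the KLF-type motif 2 times, at 45 to 38 and at 26 to 19 bases before its start. Tfcp2l1 held it 2 times on the opposite strand, where it reads CCACGCCC, and Zfp42 held the octamer core at 185 to 179. Utf1, which had one of the largest differences in the ESC-derived pair, held none of the 4.

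A promoter was listed for 21 of the 32 genes, with 26 starts, and not for Sall4, Prdm14, Klf5, Tbx3, Dppa2, Dppa3, Dppa4, Dppa5a, Gdf3, Lefty1 and Lefty2. Over all 32851 listed promoters, the same window held the octamer core in 4.12%, the composite core in 0.718%, the ESRRB-type motif in 1.33% and the KLF-type motif in 4.79%. Among the 21 genes, the octamer core occurred in Nanog and Zfp42, the composite core in Nanog, and the KLF-type motif in L1td1, Nanog, Tdgf1 and Tfcp2l1, while the ESRRB-type motif occurred in none. Of the 10 genes past 2-fold, 8 had a promoter entry and 2 of these held a motif, compared with 3 of the 13 other genes with an entry. A match of letters describes the sequence and does not show that a factor binds there.

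The core factors divided into 2 genes with a large difference and 2 without. Nanog, a homeodomain factor that stabilizes the pluripotent state, had a log2 signal of 6.90 for CORIN+LMX1A::GFP+, 9.497 for CORIN-LMX1A::GFP+, 6.73 for VM CORIN+ and 6.93 for VM CORIN-. Only CORIN-LMX1A::GFP+ cells were high, by 6.06-fold over CORIN+LMX1A::GFP+ cells and by 5.94-fold over the higher fetal array. Among all 19938 genes, Nanog was number 4 in order of how much lower it was in CORIN+LMX1A::GFP+ cells. Pou5f1, the gene of OCT4, had 6.46 and 8.06 in the CORIN+ and CORIN- cells of the ESC-derived pair, and 6.16 and 6.25 in those of the fetal pair. Its excess in CORIN-LMX1A::GFP+ cells was 3.04-fold over CORIN+LMX1A::GFP+ cells and 3.52-fold over the higher fetal array. In both genes CORIN-LMX1A::GFP+ cells were the highest array and VM CORIN+ cells the lowest, and CORIN+LMX1A::GFP+ cells lay close to fetal VM.

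Sall4, a zinc finger factor of ESCs that is also active in other embryonic progenitors, behaved differently. Its log2 signals were 11.52 for CORIN+LMX1A::GFP+, 11.72 for CORIN-LMX1A::GFP+, 10.001 for VM CORIN+ and 10.33 for VM CORIN-. Both ESC-derived arrays were high, by 2.28-fold and 2.62-fold over the higher fetal array, while they differed from each other by 1.15-fold. Prdm14, a repressor that guards the naive state, had 6.72, 6.86, 6.67 and 6.61 in the same order, so its 4 arrays lay within 0.25 log2 units.

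The 8 factors of the naive state had a median difference of -0.75 in the ESC-derived pair. Of these, 2 were lower by at least 2-fold in CORIN+LMX1A::GFP+ cells, against 0.522% of all genes. Nr0b1, which encodes the nuclear receptor DAX1, had 6.75 for CORIN+LMX1A::GFP+, 8.74 for CORIN-LMX1A::GFP+, 6.995 for VM CORIN+ and 7.65 for VM CORIN-. It was 3.97-fold higher in CORIN-LMX1A::GFP+ than in CORIN+LMX1A::GFP+ cells and 2.13-fold above the higher fetal array. In CORIN+LMX1A::GFP+ cells it lay below both fetal arrays, and the fetal arrays themselves were 1.57-fold apart.

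Esrrb, an orphan nuclear receptor of the naive network, was the one gene of the 10 without an excess over fetal VM. Its log2 signals were 6.64 for CORIN+LMX1A::GFP+, 7.84 for CORIN-LMX1A::GFP+, 7.60 for VM CORIN+ and 8.07 for VM CORIN-. CORIN+LMX1A::GFP+ cells were therefore the low array, 2.29-fold below CORIN-LMX1A::GFP+ cells and -1.43 log2 units from the higher fetal array. CORIN-LMX1A::GFP+ cells lay between the 2 fetal arrays. Read against the fetal level, Esrrb gave no excess in either ESC-derived population.

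Tfcp2l1, Zfp42 and Tbx3 lay short of 2-fold in the same direction. For Tfcp2l1, a grainyhead-type factor downstream of LIF, the signals were 7.17 for CORIN+LMX1A::GFP+ and 8.09 for CORIN-LMX1A::GFP+, with 6.94 and 6.83 in the CORIN+ and CORIN- cells of the fetal VM. This is 1.90-fold within the ESC-derived pair and 2.23-fold over the higher fetal array. Zfp42, the gene of the ESC marker REX1, was 1.69-fold higher in CORIN-LMX1A::GFP+ than in CORIN+LMX1A::GFP+ cells, and Tbx3, a T-box factor that is also known from other tissues, 1.68-fold. Zfp42 in CORIN+LMX1A::GFP+ cells lay 0.06 log2 units above the higher fetal array, whereas Tbx3 there was below both fetal arrays.

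The 3 KLF genes, zinc finger factors of the naive network with wide expression outside it, showed small differences or the opposite direction. Klf5 had 11.21 for CORIN+LMX1A::GFP+, 10.83 for CORIN-LMX1A::GFP+, 9.56 for VM CORIN+ and 9.51 for VM CORIN-. Both ESC-derived arrays were above both fetal arrays, by 3.14-fold for CORIN+LMX1A::GFP+ and by 2.41-fold for CORIN-LMX1A::GFP+, and Klf5 was 1.30-fold higher in the CORIN+ cells of the ESC-derived pair. Klf2 and Klf4 had the same direction as most of the 32 genes, with differences of -0.10 and -0.17 log2 units within that pair, and their signals in CORIN-LMX1A::GFP+ cells were no more than 0.07 log2 units above the higher fetal array.

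Genes of the developmental pluripotency-associated (Dppa) family and Utf1 were split. Of these 5 genes, 3 were lower by at least 2-fold in CORIN+LMX1A::GFP+ cells, against 0.522% of all genes. The median difference of -2.49 was the value of Dppa2, whereas Dppa3 and Dppa4 differed by -0.27 and -0.38. Dppa5a, a small protein with an RNA-binding type domain that marks ESCs, had 7.16 for CORIN+LMX1A::GFP+, 10.58 for CORIN-LMX1A::GFP+, 6.90 for VM CORIN+ and 6.78 for VM CORIN-. It was 10.7-fold higher in CORIN-LMX1A::GFP+ than in CORIN+LMX1A::GFP+ cells, the largest such difference among the 19938 genes, and 12.9-fold above the higher fetal array. Utf1, a chromatin-bound protein of undifferentiated cells, had 7.17 and 9.80 in the CORIN+ and CORIN- cells of the ESC-derived pair and 6.70 and 6.76 in those of the fetal pair. It was 6.20-fold higher in CORIN-LMX1A::GFP+ than in CORIN+LMX1A::GFP+ cells and 8.25-fold above the higher fetal array. Its level in CORIN+LMX1A::GFP+ cells was 1.33-fold above that array, the largest such excess among the 10 genes.

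Dppa2, a chromatin protein of pluripotent cells that pairs with DPPA4, had 6.05 for CORIN+LMX1A::GFP+, 8.54 for CORIN-LMX1A::GFP+, 5.94 for VM CORIN+ and 6.00 for VM CORIN-. The excess in CORIN-LMX1A::GFP+ cells was 5.62-fold over CORIN+LMX1A::GFP+ cells and 5.82-fold over the higher fetal array. A second, dimmer cluster of Dppa2 showed the same order with a smaller difference of -1.27 in the ESC-derived pair. Dppa4 had 7.06, 7.43, 7.12 and 7.23 in the same order of arrays, and its second cluster a difference of -0.76 against -0.38 for the brighter one. The clusters of Dppa4 thus gave the same direction and unequal sizes, both under 2-fold. Dppa3, which encodes STELLA, a protein that protects DNA methylation in the zygote, had a difference of -0.27 with all 4 arrays between 6.29 and 6.56.

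Among genes of Nodal signalling, a TGF-beta type pathway active in the early embryo, the co-receptor stood out from the ligands and inhibitors. Tdgf1, which encodes the co-receptor CRIPTO, had 6.78 for CORIN+LMX1A::GFP+, 8.88 for CORIN-LMX1A::GFP+, 6.67 for VM CORIN+ and 6.72 for VM CORIN-. CORIN-LMX1A::GFP+ cells alone were high, 4.27-fold above CORIN+LMX1A::GFP+ cells and 4.45-fold above the higher fetal array. The ligand Nodal had 7.23 and 7.91 in the CORIN+ and CORIN- cells of the ESC-derived pair, which is 1.60-fold, and 7.28 and 7.31 in the fetal pair. The ligand Gdf3 and the inhibitor Lefty1 differed by -0.54 and -0.52 log2 units, and the inhibitor Lefty2 by 0.01. Of 10 further measured genes of the pathway, none was past 2-fold in either direction within the ESC-derived pair. Of all genes, 0.522% were past 2-fold lower and 0.376% higher. The median difference of the 10 was -0.02. In CORIN+LMX1A::GFP+ cells 5 of the 10 were lower, near the 49.4% of all genes.

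The RNA regulators were brighter in the ESC-derived than in the fetal arrays, with the exception of L1td1. Lin28a and Lin28b encode proteins that block maturation of the let-7 microRNAs, and Trim71 is an RNA-binding ubiquitin ligase that is itself a let-7 target. Lin28a had 9.43 for CORIN+LMX1A::GFP+, 10.51 for CORIN-LMX1A::GFP+, 8.26 for VM CORIN+ and 9.06 for VM CORIN-. It was 2.11-fold higher in CORIN-LMX1A::GFP+ than in CORIN+LMX1A::GFP+ cells and 2.73-fold above the higher fetal array. Trim71 had 9.39, 10.02, 8.15 and 8.74 in the same order, so that CORIN-LMX1A::GFP+ cells were 2.43-fold and CORIN+LMX1A::GFP+ cells 1.57-fold above the higher fetal array. Lin28b had 9.29, 9.76, 8.64 and 9.05. All 3 genes had the same order of arrays, from CORIN-LMX1A::GFP+ at the top, through CORIN+LMX1A::GFP+ and VM CORIN-, to VM CORIN+ at the bottom. L1td1, an RNA-binding protein derived from a retrotransposon, lay between 6.97 and 7.14 in all 4 arrays. None of 4 further let-7 targets was past 2-fold within the ESC-derived pair, where 0.522% of all genes were lower and 0.376% higher. The median difference of the 4 was -0.22.

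Of 4 genes that write, guide or remove DNA methylation, 1 was lower by at least 2-fold in CORIN+LMX1A::GFP+ cells, against 0.522% of all genes. All 4 had a lower signal there, against 49.4% of all genes. Dnmt3l, a catalytically inactive partner of the de novo methyltransferases, had 6.48 for CORIN+LMX1A::GFP+, 8.60 for CORIN-LMX1A::GFP+, 6.34 for VM CORIN+ and 6.35 for VM CORIN-. The excess in CORIN-LMX1A::GFP+ cells was 4.35-fold over CORIN+LMX1A::GFP+ cells and 4.77-fold over the higher fetal array. Dnmt3b, a de novo methyltransferase that is also active in early neural tissue, had 8.27, 8.70, 8.10 and 7.99 in the same order, which is 1.35-fold within the ESC-derived pair. Tet1 and Tet2, which oxidize methylcytosine, differed by -0.19 and -0.12 in that pair, and Tet2 was the only one of the 32 genes with both fetal arrays above both ESC-derived arrays. The 3 further methylation genes had a median difference of -0.14. None was past 2-fold, against 0.522% of all genes lower and 0.376% higher. Of the growth signalling genes, Tcl1, a co-activator of AKT, differed by -0.46, and Eras, a constitutively active RAS of ESCs, by -0.05.

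Across the 4 arrays, 17 of the 32 genes (53.1%) stayed within 2-fold from their lowest to their highest array, against 86.3% of all genes. The CORIN-LMX1A::GFP+ array was the highest of the 4 for 26 genes (81.2%), against 20.2% of all genes. In 9 genes (Pou5f1, Nanog, Nr0b1, Dppa2, Dppa5a, Utf1, Tdgf1, Lin28a and Dnmt3l) it was at least 2-fold above each of the other 3 arrays, against 0.176% of all genes, which is 35 genes. The other 26 genes with such an excess included Lncenc1, a long noncoding RNA of naive ESCs, with 7.04 for CORIN+LMX1A::GFP+, 9.60 for CORIN-LMX1A::GFP+, 6.83 for VM CORIN+ and 7.20 for VM CORIN-. It also held the small heat shock protein gene Hspb1 with 8.08, 10.20, 8.005 and 7.51 in the same order, and the matrix protein gene Postn with an excess of 1.54 log2 units. The others of the 10 largest were the zinc finger genes Zfp640, Zfp980 and Zfp600, AU018091, the neuropeptide gene Tac1, the transcription factor gene Sim2 and Ddn. Their excess ranged from 1.31 for Zfp600 to 2.34 for Zfp640. The 4 genes at the head of all 35, Dppa5a, Utf1, Nanog and Dppa2, were pluripotency genes.

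**Figure D3:**
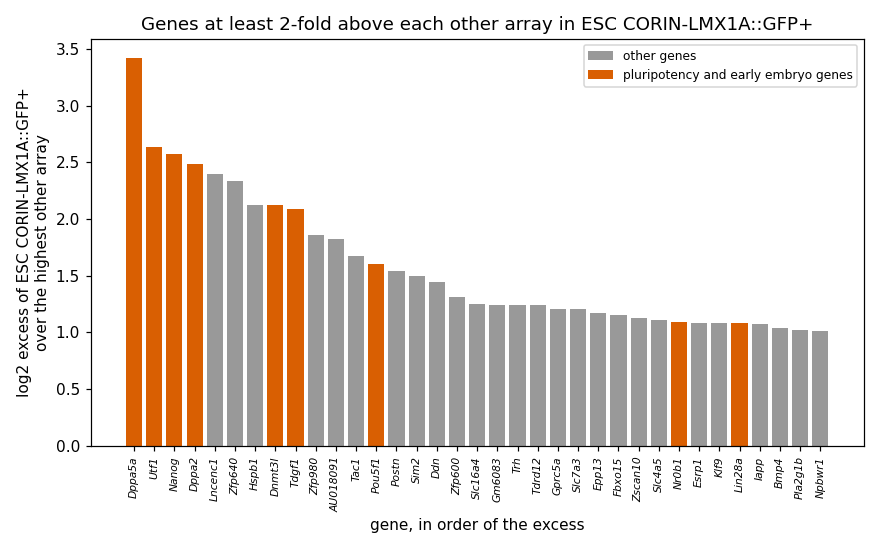
Log2 signal of CORIN-LMX1A::GFP+ cells minus that of the highest other array (y axis) for the 35 genes where it is at least 1, in order of size (x axis), from 1 array per population. The 9 pluripotency and early embryo genes are in orange and include the 4 largest values, from 3.42 for Dppa5a to 2.49 for Dppa2.

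Within the fetal pair the pluripotency genes lay about as close together as all genes did. None of the 32 was at least 2-fold higher in VM CORIN+ cells, against 3.16% of all genes, and none was at least 2-fold lower, against 0.456%. The median difference, VM CORIN+ minus VM CORIN-, was -0.06 over the 32 genes and -0.04 over all genes. For 29 of the 32 genes (90.6%) the fetal arrays were within 1.5-fold of each other, against 91.3% of all genes. Lin28a, Nr0b1 and Trim71 were the exceptions, lower in VM CORIN+ cells by 1.74-fold, 1.57-fold and 1.504-fold. Corin itself differed by 4.15 log2 units in this pair and by 1.96 in the ESC-derived pair.

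Other genes of pluripotent cells that are not among the 32 had a median difference of -0.50 in the ESC-derived pair. On the CORIN+ side, 3 of 19 were lower by at least 2-fold, against 0.522% of all genes. A lower signal at all was found for 14 of 19, against 49.4% of all genes. Fbxo15, an F-box gene long used as an ESC reporter, had 5.57 for CORIN+LMX1A::GFP+, 6.72 for CORIN-LMX1A::GFP+, 5.41 for VM CORIN+ and 5.49 for VM CORIN-. Zscan10, a zinc finger factor of ESCs, had 7.30, 8.42, 6.95 and 7.01 in the same order. Both genes were at least 2-fold above each other array in CORIN-LMX1A::GFP+ cells. Fgf4, a growth factor that OCT4 and SOX2 are known to control, had 7.43 and 8.51 in the ESC-derived pair and 7.32 and 7.56 in the fetal pair. Sox2, named here after its value was seen, is shared by pluripotent and neural progenitor cells and was 0.26 log2 units higher in CORIN+LMX1A::GFP+ cells.

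Genes of the primed, post-implantation epiblast had a median of -0.18, with 1 of 8 lower by at least 2-fold on the CORIN+ side, against 0.522% of all genes. That gene was Zic2, a zinc finger factor that is also expressed in neural tissue, with 8.41 and 9.62 in the CORIN+ and CORIN- cells of the ESC-derived pair and 11.88 and 10.61 in those of the fetal pair. Both fetal arrays were the higher ones for Zic2, unlike for the genes of the naive state. None of 10 neural progenitor genes was past 2-fold within the ESC-derived pair, where 0.522% of all genes were lower and 0.376% higher. Their median was 0.05, and 4 of the 10 were lower in CORIN+LMX1A::GFP+ cells. Hes5 and Fabp7 had the largest differences, higher there by 0.83 and 0.71 log2 units. Of 7 floor plate genes, Corin and the transcription factor gene Ferd3l were at least 2-fold higher in CORIN+LMX1A::GFP+ cells, against 0.376% of all genes. Corin is the gene of the sort marker, so its difference follows from the sort and is no separate result. Ferd3l differed by 1.20 log2 units. The median of the 7, with Corin included, was 0.74.

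**Figure D4:**
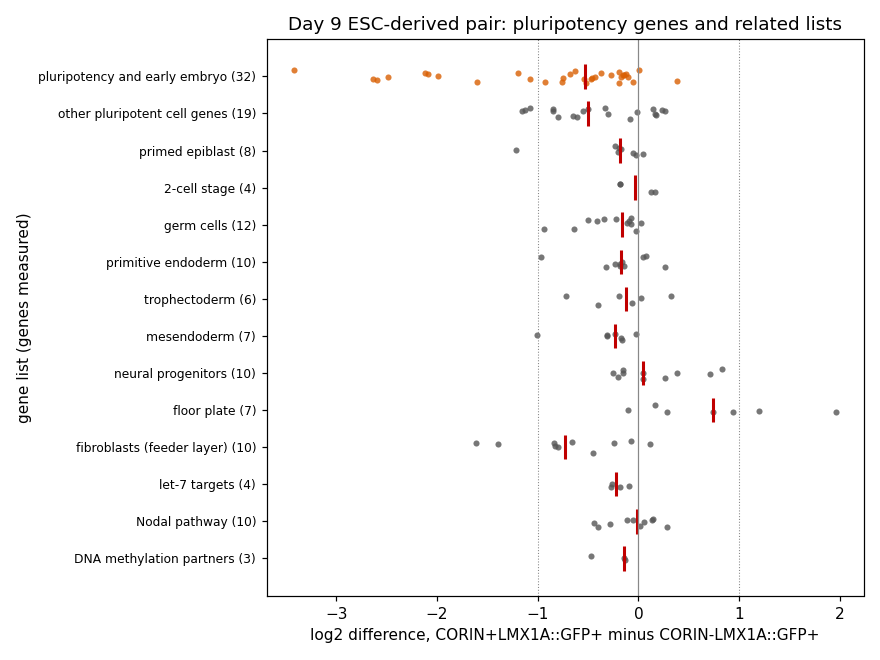
Log2 difference, CORIN+LMX1A::GFP+ minus CORIN-LMX1A::GFP+ (x axis), for each measured gene (point) of the 32 pluripotency and early embryo genes and of 13 related lists (y axis), from 1 array per population. Red bars are list medians and dotted lines mark 2-fold; the pluripotency genes reach from -3.42 to 0.38, and their median of -0.53 lies between those of the fibroblast list (-0.73) and the other genes of pluripotent cells (-0.50).

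Fibroblast markers moved in the same direction as the pluripotency genes in the ESC-derived pair, and fibroblasts were the feeder layer on which the ESCs had been kept. Both populations were gated as LMX1A::GFP+, and carry-over of feeder cells through that sort was not measured here. Of 10 such markers, 9 were lower on the CORIN+ side, against 49.4% of all genes, and the median difference was -0.73. Postn and Lum were lower by at least 2-fold, against 0.522% of all genes. The summed signal of the 10 markers, on the log2 scale, was 12.55 for CORIN+LMX1A::GFP+, 13.36 for CORIN-LMX1A::GFP+, 14.25 for VM CORIN+ and 12.36 for VM CORIN-. Postn, a matrix protein of mesenchymal cells, had 9.86, 11.47, 9.93 and 8.99 in the same order. Lum, a proteoglycan of connective tissue, had 7.70, 9.10, 11.49 and 8.74. In the fetal pair, 8 of the 10 markers were at least 2-fold higher in VM CORIN+ cells, against 3.16% of all genes. The part of fibroblasts in the difference within the ESC-derived pair was not tested.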

How the data were processed

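Each of 4 sorted populations was measured on 1 Affymetrix mouse array. The authors prepared biotinylated cDNA from total RNA and deposited log2 signals for 28856 transcript clusters. They name GeneSpring for the analysis. How probes were summarized, arrays normalized and clusters filtered, and on which build, is not given in the sources used here. The annotation used gives 1 symbol to 21789 clusters and several to 1621, and 5446 are unnamed here. Symbols of 21698 clusters, changed or not, were taken from GRCm38.p6 names through the gene identifier. The clusters with 1 symbol give 19938 genes. Of the 32 genes, 4 have several clusters, and the cluster with the highest mean signal was used.

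Differences of log2 signals were counted from 2-fold. With 1 array per population, nothing was tested. The fetal level of a gene is the higher fetal array. The genes, the related lists and the rules were chosen with earlier results of these data known. Named were all 32 genes, members of related lists at least 2-fold apart in the ESC-derived pair (up to 4 per list), the 10 other genes with the largest excess in CORIN-LMX1A::GFP+ cells, and Corin. Lmx1a was not analysed here. Alternatives were quantile normalization, centring on the array median, 32 added to the linear signal, only clusters above the 20th percentile in at least 1 array, thresholds of 1.5-fold and 3-fold, the mean over a gene's clusters, and the mean of the fetal arrays as the fetal level. A count moved when it changed by more than 1.5 times, and a median or difference when it changed by more than the comparison's scaled median absolute deviation. The counting was tested on simulated data. Python 3.11.15, numpy 2.4.6, pandas 2.3.3 and matplotlib 3.10.9 were used.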

Additional observations from a re-analysis of the deposited data

Results flagged for a closer look

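In 2 of the genes named above, the CORIN+ cells were at least 2-fold lower than the CORIN- cells in the ESC-derived pair and at least 2-fold higher in the fetal pair. Lum, a marker of the fibroblast list, had a log2 difference of -1.40 in the ESC-derived pair (7.70 against 9.10) and of 2.75 in the fetal pair (11.49 against 8.74). Zic2, of the primed epiblast list, had -1.21 in the ESC-derived pair (8.41 against 9.62) and 1.27 in the fetal pair (11.88 against 10.61). With 1 array per population, the difference between the pairs was not tested. None of the 32 pluripotency and early embryo genes could meet this rule, because none was past 2-fold in the fetal pair. How many of all genes meet it was not counted here.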

How the results depend on the processing

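The count of 10 genes lower by at least 2-fold on the CORIN+ side of the ESC-derived pair was also 10 under quantile normalization, centring, the filter on dim clusters and the mean over a gene's clusters. With 32 added to the linear signal it was 9, because Esrrb came to -0.99. It was 15 at 1.5-fold, with Nodal, Tbx3, Tfcp2l1, Trim71 and Zfp42 added, and 8 at 3-fold, without Esrrb and Lin28a. At 1.5-fold, 3 genes were lower in VM CORIN+ cells, and at 3-fold, 7 genes for CORIN-LMX1A::GFP+ and 1 for CORIN+LMX1A::GFP+ were above the fetal level. Of 90 counts and medians recomputed, the last 3 counts moved by over 1.5 times, and the others did not move. Of 1018 differences of single genes, 43 moved and none that was past 2-fold changed sign. Of these, 31 moved with 32 added to the signal, 7 with the mean over clusters and 5 with the mean fetal level. For Dppa2 the mean over its 2 clusters gave -1.88 in place of -2.49. The arrays were fixed in number at 1 per population, so no array could be left out, and no error of any difference is known. No paired analysis was possible because each population has 1 array. Signal over background was not measured here.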

Other observations

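The lists of other early lineages held 12 germ cell, 7 mesendoderm, 6 trophectoderm and 10 primitive endoderm genes, and 4 of the 2-cell stage. Of these, Eomes alone was past 2-fold within the ESC-derived pair, and it lay just at the line. Among all genes, 0.522% were past 2-fold lower in that pair and 0.376% higher. The primed epiblast list is not part of this count, and its gene Zic2 was past 2-fold with -1.21. The call for Eomes was not recomputed under the alternative processing. Of 12 germ cell genes, 11 were lower in CORIN+LMX1A::GFP+ cells, none of them 2-fold, with a median of -0.17, while 49.4% of all genes were lower there. The largest difference was that of Mael, a gene of the piRNA pathway, with log2 signals of 5.62 for CORIN+LMX1A::GFP+, 6.56 for CORIN-LMX1A::GFP+, 5.38 for VM CORIN+ and 5.54 for VM CORIN-. The 4 measured genes of the 2-cell stage lay between -0.19 and 0.17 log2 units. In the mesendoderm list, Eomes, a T-box factor of the primitive streak that is also expressed in the brain, was the largest of 7 genes with -1.003, and the list's median was -0.23.

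Of the trophectoderm and primitive endoderm lists, 2 of 6 genes and 1 of 10 were at least 2-fold above the higher fetal array in CORIN-LMX1A::GFP+ cells, against 2.0% of all genes. The same genes, Krt8, Krt18 and Cubn, were past this line in CORIN+LMX1A::GFP+ cells, against 2.57% of all genes. Within the ESC-derived pair none of their 6 and 10 genes was past 2-fold, against 0.522% of all genes lower and 0.376% higher. The medians were -0.13 and -0.17. Krt8 and Krt18, keratins of simple epithelia, are 2 of 6 trophectoderm genes. Krt8 had 11.22 for CORIN+LMX1A::GFP+, 11.62 for CORIN-LMX1A::GFP+, 8.68 for VM CORIN+ and 8.35 for VM CORIN-. Krt18 had 10.14, 10.86, 7.53 and 7.56 in the same order. Both keratins were at least 2-fold above both fetal arrays in both ESC-derived populations. Cubn, an endocytic receptor of the primitive endoderm list, was also above both fetal arrays there, with 8.50, 8.42, 7.19 and 7.31. Others of that list lay the other way, such as Pdgfra, a growth factor receptor also of mesenchymal cells, and Dab2, an endocytic adaptor, which were highest in VM CORIN+ cells with 11.19 and 12.70. Mael, the keratins, Cubn, Pdgfra and Dab2 were named after their values were seen.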
